A study of Mus musculus with 74 samples.

Results

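Lung tumours that carried 1 guide against Nf1 and 1 guide against p53 were compared with tumours that carried only 1 of these guides beside an inert guide, and with tumours that carried 2 inert guides. The table held 6090 Nf1+p53 tumours among 378754 tumours, or 1.61%. Of these, 2816 grew in H11-Cas9 mice, 833 in H11-LSL-Cas9 mice and 2441 in KT mice. A tumour was a member by its guide names alone, with either gene in either place, and not by its measured values. The classes and tests themselves were chosen with earlier results of these data known. The comparison classes held 7408 Nf1+inert, 8610 p53+inert and 2973 inert/inert tumours over the same mice. Inert guides were those named safe, NT and EGFP, with different guides in the 2 places.

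The series measured the lungs of 74 mice, each 1 library, about 3 months after a lentiviral pool with Cre, a tumour barcode and 2 guides had started tumours. In 45 H11-Cas9 mice the background that the labels call KT, which includes a Tomato reporter switched on by Cre, was joined by Cas9 at the H11 locus. In 20 H11-LSL-Cas9 mice the same Cas9 site stood behind a stop cassette of the kind that Cre removes. The 9 KT mice had the background and the virus but no Cas9, so their guides could not cut. Groups were taken from the genotype given for each mouse, since the protocol text spells both Cas9 genotypes with LSL. The sources used here give no age, sex or virus dose. Cutting was not measured in any tumour, and a class is named by its guides, not by alleles read from the tumour.

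Nf1 encodes neurofibromin, a protein that switches Ras proteins off by speeding up their GTP hydrolysis. The label p53 stands for Trp53, which encodes a transcription factor that halts the cell cycle or starts cell death in damaged or stressed cells. Both are tumour suppressors, and loss of p53 in lung tumours is known for progression to more advanced disease. In the RefSeq annotation of the mouse both genes lie on chromosome 11. The pool held 2 guides for each gene, called V1 and V2, and each combination was present in both orders, which gave 8 constructs.

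Each tumour had a read count and a number of cells estimated by the authors from spike-in barcodes. The number of tumours per mouse ranged between 1013 and 5364 in H11-Cas9 mice, between 4 and 4941 in H11-LSL-Cas9 mice and between 13191 and 41166 in KT mice. Mouse 3 and mouse 7 of the H11-LSL-Cas9 group had under 20 tumours and gave no values. One read stood for 7.96 cells in the median H11-Cas9 mouse, for 12.9 in H11-LSL-Cas9 and for 4.82 in KT mice. The smallest tumour of a mouse had between 50.1 and 105 cells over H11-Cas9 mice and between 50.4 and 56.2 over KT mice. Over H11-LSL-Cas9 mice it had between 50.4 and 369 cells, a range that includes the mice with under 20 tumours. Tumours below the smallest size of a mouse were not seen in it, and the main comparisons set no common minimum size. A larger mean can therefore hold both larger tumours and a different share of tumours above that size. Whether the animals of a group were litter mates is not given, so p-values measure the spread between these mice.

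In H11-Cas9 mice, Nf1+p53 tumours were larger than inert/inert tumours and larger than p53+inert tumours, while their excess over Nf1+inert tumours did not pass the test. The geometric mean size of Nf1+p53 tumours per mouse was 156 cells at the lowest, 269 at the median and 877 at the highest over 45 H11-Cas9 mice. Nf1+inert tumours had 150, 250 and 882 cells, and p53+inert tumours had 134, 225 and 607 cells by the same 3 measures. Inert/inert tumours had 108, 180 and 394 cells. The ranges of the 4 classes overlapped, and the medians fell in the order Nf1+p53, Nf1+inert, p53+inert and inert/inert. Nf1+p53 tumours were the largest of the 4 classes in 26 of 45 mice and the smallest in 0, whereas inert/inert tumours were the smallest in 35 and the largest in 0. Nf1+inert tumours were the largest in 12 mice and p53+inert tumours in 7.

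**Figure D1:**
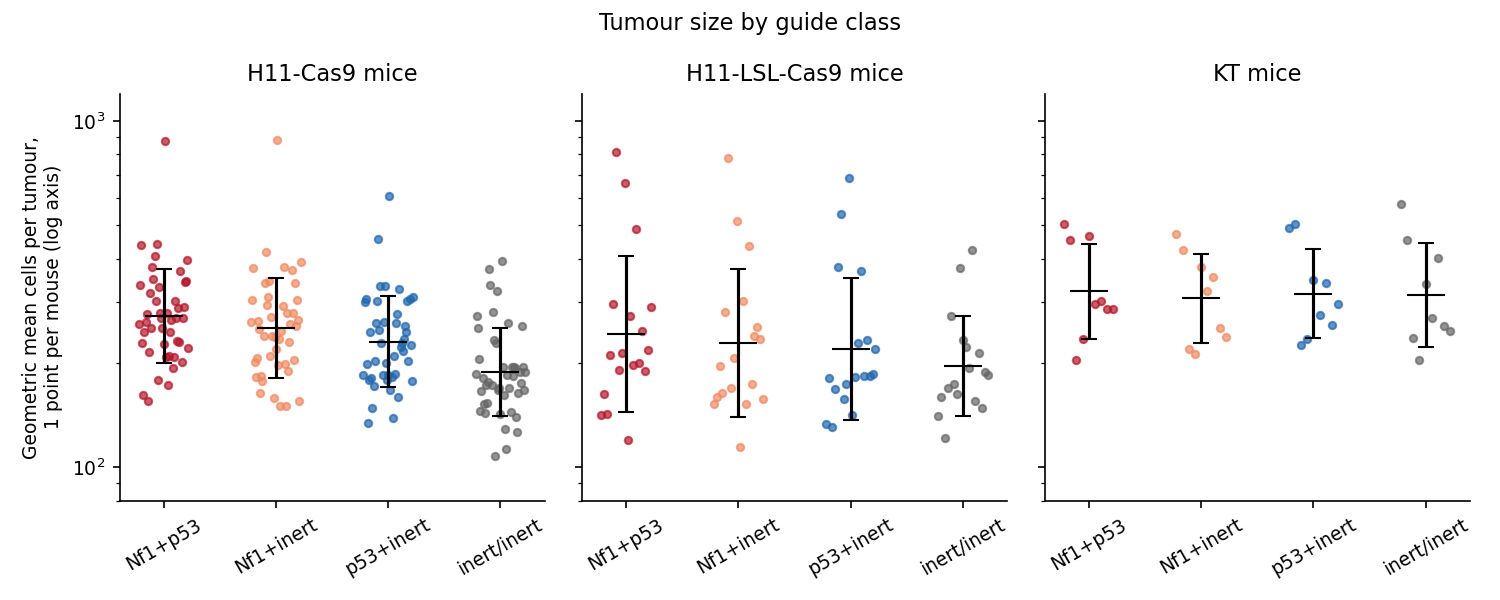
Geometric mean cells per tumour in each mouse (1 point per mouse, log axis) for the 4 guide classes, with the mean and SD over mice of the log values as bars. The H11-Cas9 medians step down across the classes, 269, 250, 225 and 180 cells, while the KT classes lie together.

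Within a mouse, the mean log2 cells of Nf1+p53 tumours exceeded that of inert/inert tumours by 0.54 ± 0.06 (SE, n = 45), a 1.45-fold difference. It was higher in 44 of 45 mice (sign-flip permutation test over mice, 2-sided, adjusted p = 5.75e-05, which rests on the smallest p that 100000 resamples give). Of the 92 gene pairs tested in these mice, 42.4% were called higher than inert/inert, so a call in itself was common, and Nf1+p53 ranked number 6 by size of effect. Nf1+inert tumours exceeded inert/inert by 0.43 ± 0.06 and p53+inert tumours by 0.29 ± 0.05 (SE, n = 45 each, adjusted p = 4.25e-05 for each, same test). The Nf1 effect was the larger of the 2 by 0.14 ± 0.04, in 32 of 45 mice (permutation test, adjusted p = 0.00954 over 3 comparisons that were chosen after values had been seen).

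Setting the pair against each single asks what the second guide added. Nf1+p53 tumours exceeded p53+inert tumours by 0.25 ± 0.05 on the log2 scale (SE, n = 45), a 1.19-fold difference, with -0.52 in the lowest mouse, 0.31 in the median mouse and 1.17 in the highest. The difference was above 0 in 34 of 45 mice and passed the permutation test (adjusted p = 0.00045). Of the 180 such differences between a pair and a single, 11.1% were called higher. Nf1+p53 tumours exceeded Nf1+inert tumours by 0.11 ± 0.06, a 1.08-fold difference, with -0.82 in the lowest mouse, 0.14 in the median mouse and 1.35 in the highest. That was above 0 in 29 of 45 mice and did not pass (permutation p = 0.0482, adjusted p = 0.184). Adding the Nf1 guide to p53 thus went with a called difference, and adding the p53 guide to Nf1 did not. The gap between these 2 steps is by construction the difference between Nf1+inert and p53+inert, 0.14, given above. It is therefore not a separate result about the pair.

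The interaction asks whether the pair's effect equals the sum of the single effects on the log2 scale. It was -0.18 ± 0.08 in H11-Cas9 mice (SE, n = 45), with -1.54 in the lowest mouse, -0.05 in the median mouse and 1.26 in the highest. It was below 0 in 27 mice and above 0 in 18, and it did not pass (permutation p = 0.0297, adjusted p = 0.0862). Of the 88 interactions tested, 27.3% were called lower than 0, and their median was -0.21, so the value for Nf1+p53 lay close to that of the pairs in general. Without H11-Cas9 mouse 44, the mouse with the highest value, it was -0.21 and passed (permutation, adjusted p = 0.0231). That was the only 1 of 45 omissions that changed the call, and the adjusted p of the same test reached 0.132 among the others. With median in place of mean log2 cells it was -0.09 (permutation, adjusted p = 0.661). It was -0.28 in the mice whose spike-ins summed to about 100000 cells and -0.06 in those of about 300000 (permutation, adjusted p = 0.0794 and 0.767), and the difference of -0.21 ± 0.15 between these sets did not pass (permutation p = 0.17, added after values had been seen). All these contrasts use the same inert/inert tumours of each mouse, so chance error in that class enters every pair of a mouse together.

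**Figure D2:**
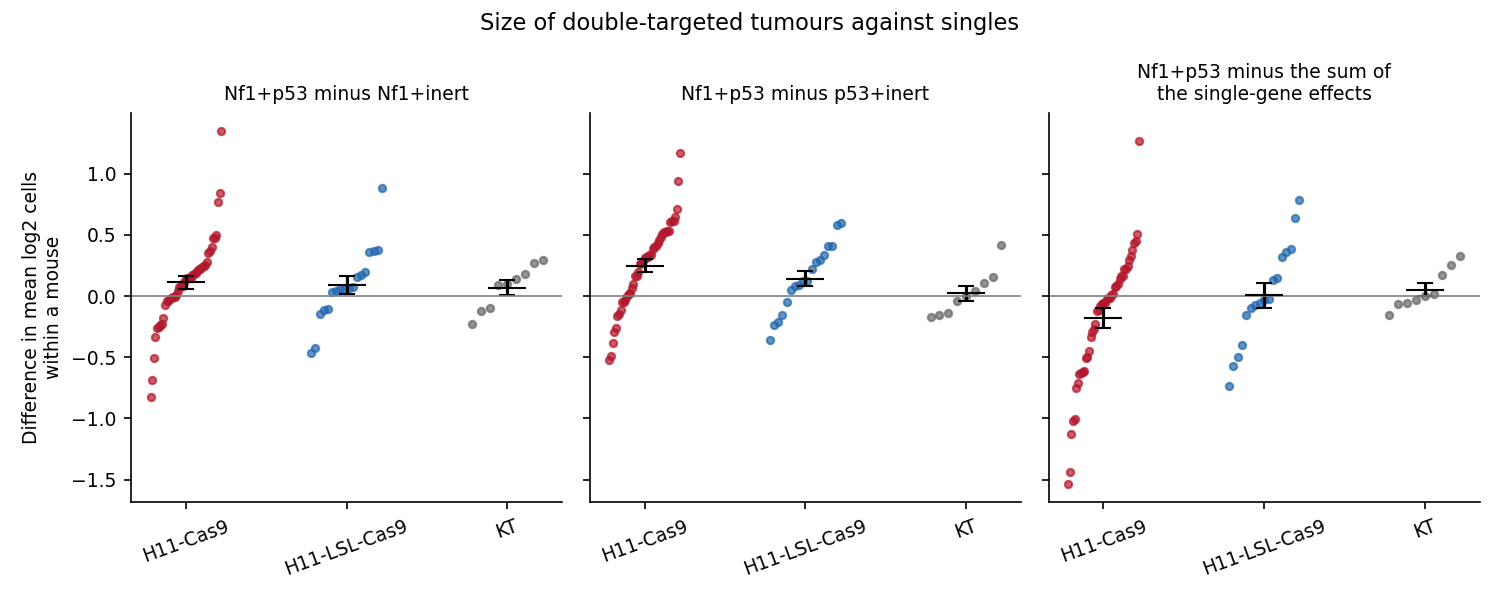
Differences in mean log2 cells within each mouse (1 point per mouse, sorted within a group, with the mean and SE as bars) for Nf1+p53 against Nf1+inert, against p53+inert, and against the sum of the single effects. In H11-Cas9 mice the means are 0.11, 0.25 and -0.18, and in KT mice they are 0.07, 0.02 and 0.05.

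KT mice give the background, since the same constructs were present without Cas9. Nf1+p53 tumours of KT mice had geometric means of 204 cells at the lowest, 296 at the median and 504 at the highest over 9 mice. The other classes had medians of 323 (Nf1+inert), 295 (p53+inert) and 270 cells (inert/inert), and all ranges overlapped. Within KT mice, Nf1+p53 differed from inert/inert by 0.04 ± 0.09, from Nf1+inert by 0.07 ± 0.06 and from p53+inert by 0.02 ± 0.06 (SE, n = 9 each, exact sign-flip test, adjusted p = 0.917, 0.908 and 0.996). With 9 mice the exact test cannot go below p = 0.00391.

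Set against KT, the excess of Nf1+p53 over inert/inert was greater in H11-Cas9 mice by 0.50 ± 0.10 on the log2 scale (permutation of mouse labels, adjusted p = 0.00515), where 20.7% of 92 pairs were called higher. The excess over p53+inert was 0.25 in H11-Cas9 and 0.02 in KT mice, and that difference of 0.23 ± 0.08 did not pass (permutation p = 0.0175, adjusted p = 0.157, with 1.11% of 180 such differences called higher). For the excess over Nf1+inert the difference was 0.04 ± 0.08 (permutation, adjusted p = 0.876), and for the interaction it was -0.23 ± 0.10 (permutation p = 0.0355, adjusted p = 0.284). The 9 KT mice entered every one of these comparisons, so they share the error of those mice.

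Upper percentiles separated the classes more widely than means of log size did. The 90th percentile of Nf1+p53 tumours per mouse was 428 cells at the lowest, 1215 at the median and 14066 at the highest in H11-Cas9 mice. The median mouse had 992 cells for Nf1+inert, 808 for p53+inert and 552 for inert/inert. The order of the classes was the same as for mean size, and the ranges overlapped.

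Within H11-Cas9 mice the 90th percentile of Nf1+p53 tumours exceeded that of inert/inert by 1.13 ± 0.13 on the log2 scale (SE, n = 44), a 2.18-fold difference found in 40 mice (permutation, adjusted p = 3.87e-05), and 67.2% of 58 pairs were called higher. It exceeded that of p53+inert by 0.51 ± 0.12, a 1.42-fold difference found in 32 of 45 mice (permutation, adjusted p = 0.00333), and 12.6% of 111 differences between a pair and a single were called higher. The excess over Nf1+inert was 0.21 ± 0.11, in 27 of 45 mice, and did not pass (permutation, adjusted p = 0.187). The interaction was -0.42 ± 0.18, below 0 in 28 of 44 mice (permutation, adjusted p = 0.0475), and 43.4% of 53 interactions were called lower, with a median of -0.42. That call was lost when any 1 of 26 of the 44 mice was left out, with -0.33 and an adjusted p of 0.0812 without mouse 45.

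Set against KT mice, the 90th-percentile excess over inert/inert was greater in H11-Cas9 mice by 1.05 ± 0.17 (permutation, adjusted p = 0.000435), where 34.5% of 58 pairs were called higher. The excess over p53+inert was greater by 0.48 ± 0.16 and did not pass (permutation p = 0.0119, adjusted p = 0.0989). Neither did the excess over Nf1+inert (0.16 ± 0.15, adjusted p = 0.583) or the interaction (-0.42 ± 0.21, adjusted p = 0.224) by the same permutation test.

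Large tumours were counted at fixed sizes as well. At least 1000 cells were reached by 366 of 2816 Nf1+p53 tumours in H11-Cas9 mice (exact 95% interval 11.8 to 14.3%), by 11.5% of Nf1+inert, 9.38% of p53+inert and 5.60% of inert/inert tumours. The intervals cover counting error only. Within a mouse the share for Nf1+p53 was 4.03 ± 0.96 percentage points above that of p53+inert, in 34 of 45 mice (permutation, adjusted p = 0.00222), where 9.01% of 111 differences were called higher. It was 1.78 ± 0.95 points above that of Nf1+inert, in 27 of 45 mice, which did not pass (permutation, adjusted p = 0.284). In KT mice the shares were 18.2% for Nf1+p53, 16.2% for Nf1+inert, 17.05% for p53+inert and 17.1% for inert/inert.

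At 10000 cells and above there were 60 Nf1+p53 tumours in 28 H11-Cas9 mice, 68 Nf1+inert tumours in 32 mice, 29 p53+inert tumours in 18 mice and 0 inert/inert tumours. As shares these were 2.13% of Nf1+p53, 2.10% of Nf1+inert and 0.832% of p53+inert tumours, and the upper limit for inert/inert was 0.333%. At 100000 cells and above there were 6 Nf1+p53, 3 Nf1+inert and 2 p53+inert tumours. The extreme sizes of the pair thus lay beside those of Nf1+inert and above those of p53+inert, as counts without a test.

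The ratio of pooled percentiles followed the same course. Nf1+p53 over p53+inert was 1.18 at the median, 1.41 at the 90th percentile, 1.58 at the 95th and 2.80 at the 99th. Nf1+p53 over Nf1+inert was 1.09, 1.13, 1.10 and 0.880 at the same percentiles, so the pair's 99th percentile was below that of Nf1+inert. The arithmetic mean in H11-Cas9 mice was 1421 cells for Nf1+p53, 1254 for Nf1+inert, 750 for p53+inert and 351 for inert/inert. A single Nf1+p53 tumour of 530020 cells in mouse 13 made up 13.2% of all cells of its class, and without it the class mean was 1233 cells.

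**Figure D3:**
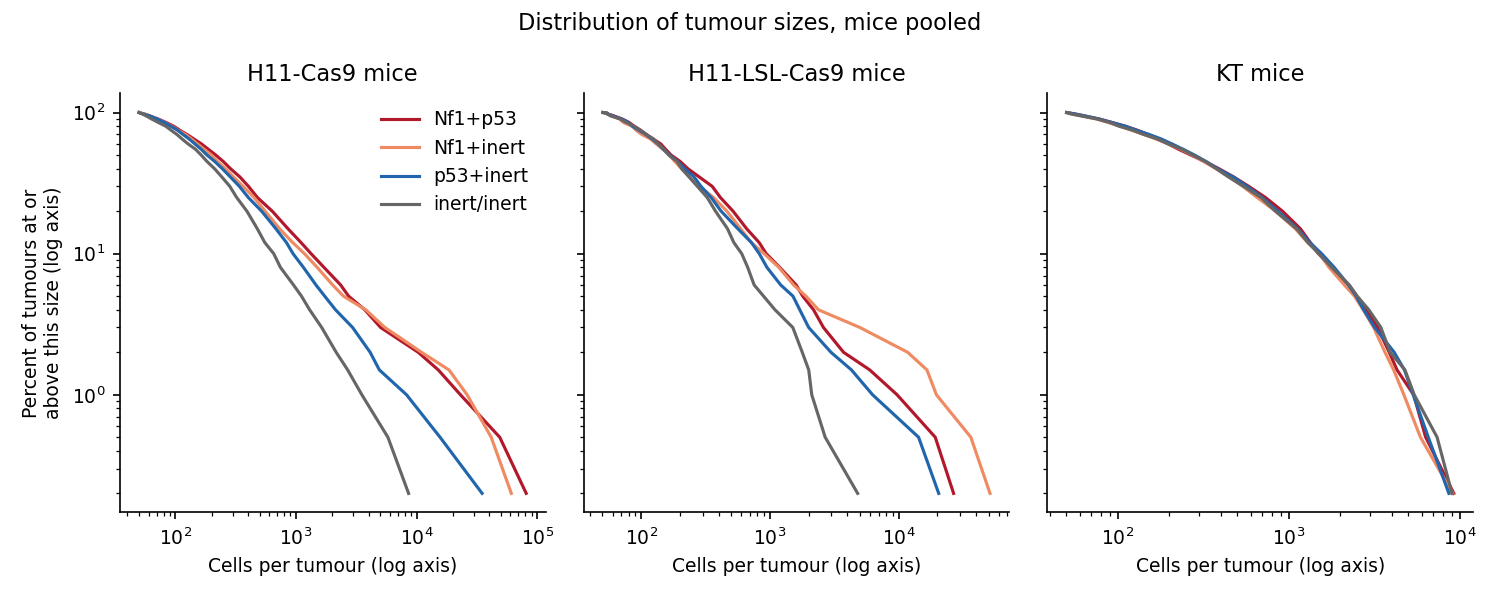
Percent of tumours at or above each size (both axes log, mice pooled) for the 4 guide classes in each group. In H11-Cas9 mice the Nf1+p53 and Nf1+inert curves run together above p53+inert and inert/inert at large sizes, and in KT mice the 4 curves lie on each other.

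In H11-LSL-Cas9 mice no comparison of Nf1+p53 in mean log2 cells passed by the measure and classes used above with all mice. The log2 of mean cells did exceed that of inert/inert, by 0.89 ± 0.20 (SE, n = 17, permutation, adjusted p = 0.00484), and ranked number 38 of 90 pairs. Some other settings, given at the end, passed too. Nf1+p53 tumours had geometric means of 120 cells at the lowest, 212 at the median and 813 at the highest over 18 mice, against medians of 201 for Nf1+inert, 183 for p53+inert and 184 for inert/inert. All ranges overlapped. Nf1+p53 was the largest of the 4 classes in 7 of 17 mice and the smallest in 0.

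Within H11-LSL-Cas9 mice, Nf1+p53 exceeded inert/inert by 0.20 ± 0.09 on the log2 scale (SE, n = 17), in 16 of 17 mice, and did not pass (permutation p = 0.0382, adjusted p = 0.204, where 3.33% of 90 pairs were called higher). Mouse 12 had -0.96, and without it the excess was 0.27 with an adjusted p of 0.00137 by the same permutation test. The excess over Nf1+inert was 0.09 ± 0.07 and over p53+inert 0.14 ± 0.06 (SE, n = 18, permutation, adjusted p = 0.673 and 0.247, with 2.26% of 177 differences called higher). The interaction was 0.01 ± 0.10 (permutation, adjusted p = 0.996). The first of these depended on 1 mouse.

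The 90th percentile of Nf1+p53 tumours in H11-LSL-Cas9 mice exceeded that of inert/inert by 0.66 ± 0.15 on the log2 scale (SE, n = 15), a 1.58-fold difference found in 13 of 15 mice (exact sign-flip test, adjusted p = 0.0225), with 8.47% of 59 pairs called higher. This used mice with at least 10 tumours of each class, which leaves out mouse 12, and with that minimum the excess in mean log2 cells passed too (0.29, n = 15, exact test, adjusted p = 0.00144). Set against KT mice, the 90th-percentile excess was greater by 0.58 ± 0.19 and did not pass (permutation, adjusted p = 0.119). At least 1000 cells were reached by 9.36% of Nf1+p53, 9.39% of Nf1+inert, 7.63% of p53+inert and 4.75% of inert/inert tumours. At 10000 cells and above there were 9 Nf1+p53, 23 Nf1+inert, 9 p53+inert and 0 inert/inert tumours. One Nf1+inert tumour of 576852 cells in mouse 10 held 37.5% of all cells of its class, and the class mean was 1505 cells with it and 941 without it, against 651 cells for Nf1+p53.

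The excess of Nf1+p53 over inert/inert in mean log2 cells was greater in H11-Cas9 than in H11-LSL-Cas9 mice by 0.34 ± 0.10 (permutation of mouse labels, adjusted p = 0.0377, with 4.71% of 85 pairs called higher). The call was lost when any 1 of 31 of the 62 mice was left out, with adjusted p up to 0.0823. The letters that begin the mouse names were not shared between H11-LSL-Cas9 and the other groups, so genotype and whatever those letters stand for cannot be told apart. All 20 H11-LSL-Cas9 mice had spike-ins of about 300000 cells, as had 20 of the 45 H11-Cas9 mice. In those 20 H11-Cas9 mice the excess was 0.46 ± 0.09, against 0.60 ± 0.07 in the 25 near 100000. The difference between the Cas9 groups was not tested within 1 spike-in total. The differences between the Cas9 groups in the excess over Nf1+inert (0.02), in the excess over p53+inert (0.10) and in the interaction (-0.19) did not pass (permutation, adjusted p = 0.983, 0.822 and 0.375).

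Tumour number was read as tumours of a class per inert/inert tumour of the same mouse, and set against the same ratio in KT mice, which holds the composition of the virus pool. Nf1+p53 tumours numbered 63 ± 23 per H11-Cas9 mouse, 46 ± 19 per H11-LSL-Cas9 mouse and 271 ± 106 per KT mouse (SD, n = 45, 18 and 9, over mice that held at least 20 tumours in all). Per inert/inert tumour they numbered 1.41 at the lowest, 2.57 at the median and 5.55 at the highest in H11-Cas9 mice, against 1.40, 1.66 and 1.86 in KT mice. The 5.55 came from mouse 38, which held only 5 inert/inert tumours, the minimum for this measure. The median H11-Cas9 mouse lay above the highest KT mouse, although the ranges overlapped.

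On the log2 scale the ratio of Nf1+p53 to inert/inert was higher in H11-Cas9 than in KT mice by 0.58 ± 0.07, or 1.498-fold (permutation of mouse labels, adjusted p = 2.47e-05), where 14.7% of 136 pairs were called higher. Nf1+inert was higher by 0.41 ± 0.07 and p53+inert by 0.22 ± 0.06 (permutation, adjusted p = 5.67e-05 and 0.00476). Against p53+inert the number of Nf1+p53 tumours was higher by 0.36 ± 0.05, or 1.28-fold (permutation, adjusted p = 0.000297), and against Nf1+inert by 0.18 ± 0.07, or 1.13-fold (permutation, adjusted p = 0.0447), with 22.8% of 272 differences called higher. The last call was lost without any 1 of 6 of the 9 KT mice, or of 15 of the 45 H11-Cas9 mice. The interaction in number was -0.05 and did not pass (permutation, adjusted p = 0.848). Counting only tumours of at least 500 cells it was -0.50, and of at least 1000 cells also -0.50 (permutation, adjusted p = 0.0578 and 0.194).

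Log ratios of very rare pairs are raised by the 0.5 added to each count, so the same tests were read over the 112 pairs expected at 2 or more tumours per H11-Cas9 mouse from their share in KT mice. Among these, 15.2% were called higher than inert/inert and Nf1+p53 ranked number 3, against number 5 of all pairs. Of the 224 differences between a pair and a single, 47 were called higher, and the excess over Nf1+inert had an adjusted p of 0.0424 by the same permutation test. No call for Nf1+p53 changed.

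**Figure D4:**
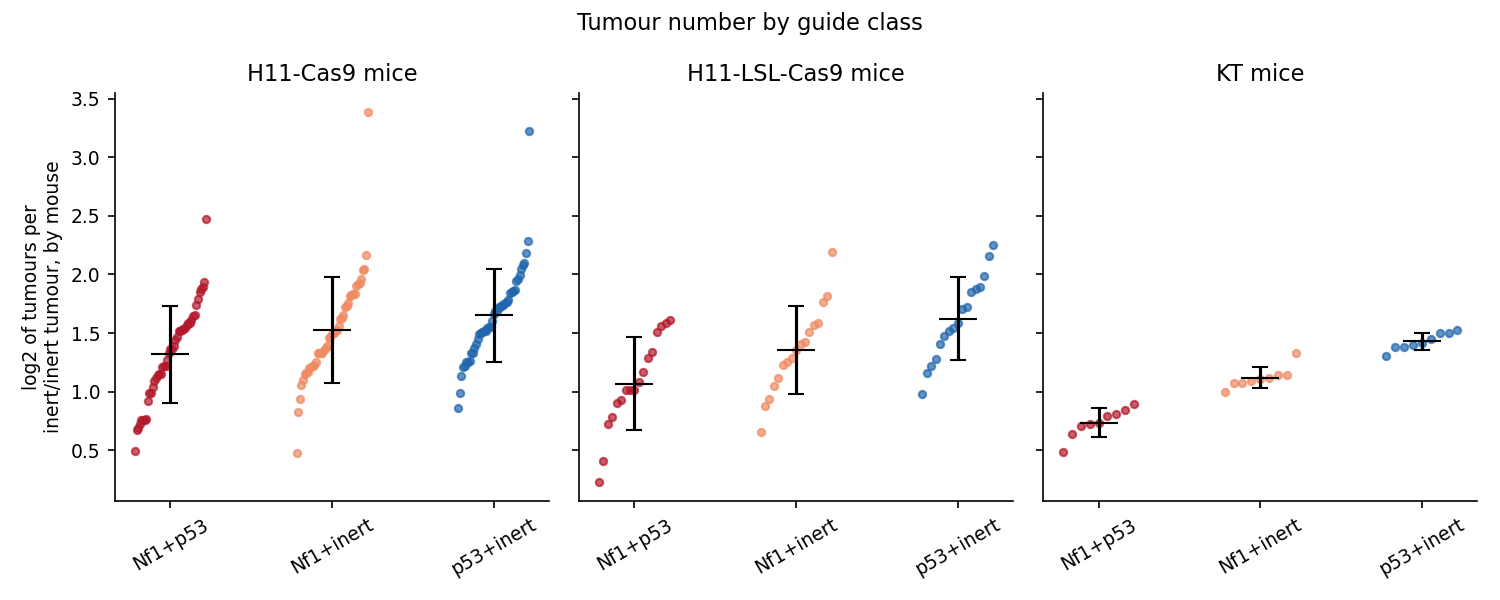
Number of tumours of each class per inert/inert tumour in each mouse (log2, 1 point per mouse, mean and SD as bars). The Nf1+p53 mean is 1.32 in H11-Cas9, 1.07 in H11-LSL-Cas9 and 0.73 in KT mice, and the classes also differ in KT mice, where no guide could cut.

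In H11-LSL-Cas9 mice the number of Nf1+p53 tumours per inert/inert tumour was 1.17 at the lowest, 2.02 at the median and 3.06 at the highest. That was higher than in KT mice by 0.33 ± 0.10 on the log2 scale, or 1.26-fold (permutation, adjusted p = 0.0198), with 12.5% of 136 pairs called higher. The excess over Nf1+inert was 0.10 ± 0.07 and over p53+inert 0.14 ± 0.06, and neither passed (permutation, adjusted p = 0.378 and 0.113, with 10.3% of 272 differences called higher). The excess over inert/inert thus passed in number in both Cas9 groups.

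Number and size were joined in the summed cells of a class per summed cells of inert/inert tumours. Against KT mice the ratio for Nf1+p53 was higher by 2.24 ± 0.21 on the log2 scale in H11-Cas9 mice, or 4.73-fold (permutation, adjusted p = 7.37e-05), with 31.5% of 92 pairs called higher. It was higher than that of p53+inert by 1.16 ± 0.24, or 2.24-fold (permutation, adjusted p = 0.000787), with 15% of 180 differences called higher, and differed from that of Nf1+inert by 0.19 ± 0.24 (permutation, adjusted p = 0.61). In H11-LSL-Cas9 mice the ratio to inert/inert was higher by 1.20 ± 0.28 (permutation, adjusted p = 0.00265), with 33.3% of 90 pairs called higher, and it was lower than that of Nf1+inert by a difference of -0.45 ± 0.39 that did not pass (permutation, adjusted p = 0.541). Summed cells rest on a few very large tumours, as the class means above show.

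All 8 constructs of the pair were above inert/inert in H11-Cas9 mice, with mean excesses between 0.37 and 0.76 on the log2 scale. The 4 constructs with the first Nf1 guide had means of 0.54 to 0.76, and the 4 with the second had 0.37 to 0.40. These means did not overlap, but the nearest did within their SE, at 0.54 ± 0.11 and 0.40 ± 0.10. Constructs that share a guide are not replicates. In H11-LSL-Cas9 mice 7 of the 8 constructs were above inert/inert, between -0.05 and 0.60, and the highest carried Nf1_V2. In KT mice 5 of the 8 were above, between -0.11 and 0.26. Within a mouse, Nf1+p53 tumours with Nf1_V1 exceeded those with Nf1_V2 by 0.25 ± 0.08 (SE, n = 45), in 33 of 45 mice (permutation, adjusted p = 0.00486 over 3 comparisons). The p53 guides differed by less than 0.01 (mean -0.00 ± 0.08), and constructs with Nf1 in the first place differed from those with p53 first by -0.06 ± 0.06 (permutation, adjusted p = 0.966 and 0.426).

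**Figure D5:**
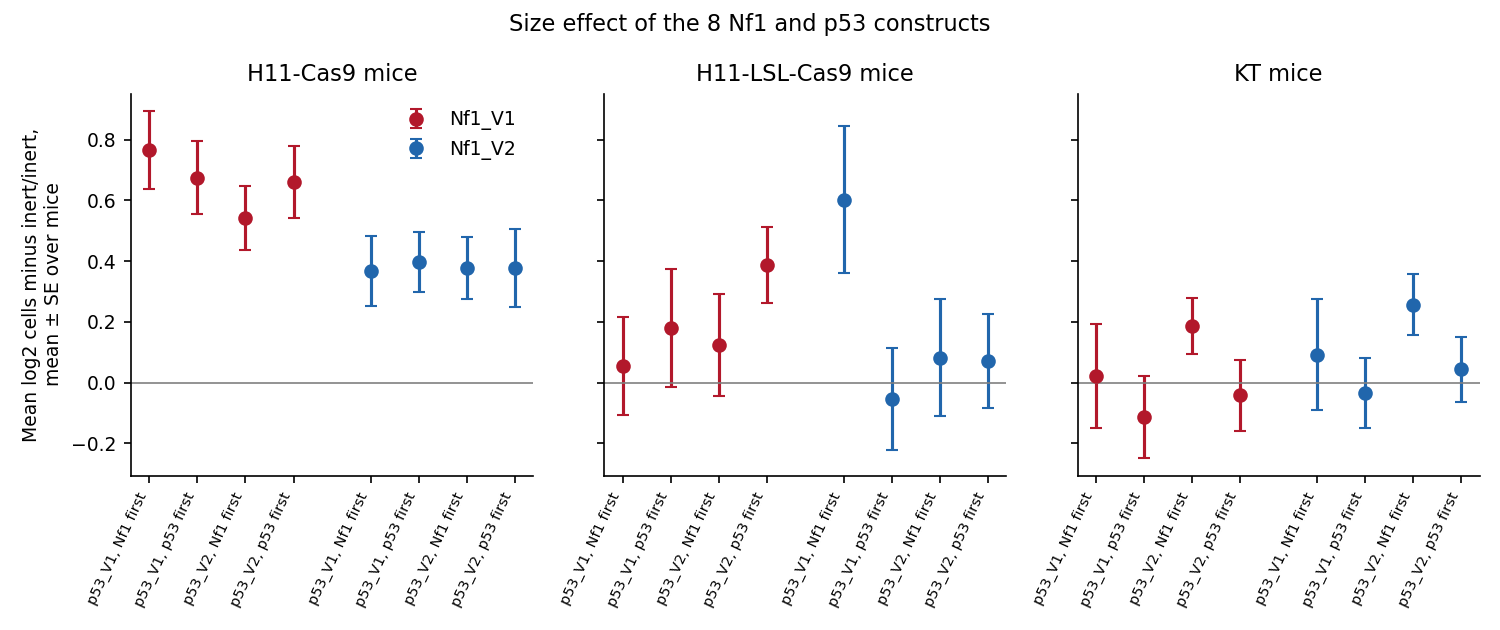
Mean log2 cells minus that of inert/inert tumours for each of the 8 constructs (mean ± SE over mice), ordered by Nf1 guide. In H11-Cas9 mice the Nf1_V1 constructs lie between 0.54 and 0.76 and the Nf1_V2 constructs between 0.37 and 0.40.

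The excess over singles was also read for each Nf1 guide. With Nf1_V1, Nf1+p53 tumours of H11-Cas9 mice exceeded Nf1_V1+inert by 0.21 ± 0.08 and p53+inert by 0.37 ± 0.06, in 29 and 32 of 45 mice. With Nf1_V2 they differed from Nf1_V2+inert by -0.00 ± 0.07 and from p53+inert by 0.12 ± 0.06, in 20 and 26 of 45 mice above 0. Beside an inert guide, Nf1_V1 exceeded Nf1_V2 by 0.05 ± 0.06 (permutation, adjusted p = 0.461). The difference between these 2 guide contrasts, 0.25 beside p53 and 0.05 beside inert, was 0.21 ± 0.10 and was above 0 in 28 of 45 mice (permutation p = 0.0394, adjusted p = 0.059 over 3 comparisons chosen after values had been seen). The guide contrast inside the pair therefore passed, and its difference from the contrast beside inert did not.

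The contrast between Nf1 guides inside the pair was also read within each set of mice. It was 0.37 ± 0.11 in the 25 H11-Cas9 mice whose spike-ins summed to about 100000 cells (permutation, adjusted p = 0.00573) and 0.11 ± 0.10 in the 20 whose spike-ins summed to about 300000 (permutation, adjusted p = 0.784). The difference of 0.27 ± 0.14 between these sets did not pass (permutation p = 0.0736, added after values had been seen). In KT mice it was -0.08 ± 0.09 (SE, n = 9, exact test, adjusted p = 0.406), and in H11-LSL-Cas9 mice 0.12 ± 0.12 (SE, n = 18, permutation, adjusted p = 0.725). The difference of 0.34 ± 0.12 between H11-Cas9 and KT mice had a permutation p of 0.0116, in a comparison added after values had been seen. In number, Nf1_V1 over Nf1_V2 inside the pair was above its KT value by 0.19 ± 0.09 in H11-Cas9 mice and by 0.37 ± 0.13 in H11-LSL-Cas9 mice (permutation, adjusted p = 0.115 and 0.0172).

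Among the pairs of H11-Cas9 mice that share a gene with this one, Nf1+p53 had the highest size effect of the 14 that hold Nf1, whose median was 0.36, and ranked number 3 of the 15 that hold p53, whose median was 0.28. All 14 interactions that hold Nf1 and 14 of the 15 that hold p53 were below 0, against 5 of 14 and 8 of 15 in H11-LSL-Cas9 mice. These share the singles and the inert/inert tumours of each mouse. The median interaction was -0.21 over all 88 in H11-Cas9 mice and 0.004 over all 87 in H11-LSL-Cas9 mice. The share below 0 over all pairs was not counted, so the counts are not read as a trait of Nf1 or p53. Nf1+Rasa1 joins Nf1 with a second gene for a protein that switches Ras off, and had 0.46 ± 0.06, against which Nf1+p53 differed by 0.08 ± 0.06 (permutation, adjusted p = 0.221). Rb1+p53 joins p53 with the cell cycle brake Rb1, and had 0.93 ± 0.08 with an interaction of 0.49 ± 0.09. Both values were the highest of the 15 pairs that hold p53. This pair was named with values known, so the p-values against it do not allow for that choice. Nf1+p53 was lower than Rb1+p53 by a difference of -0.39 ± 0.08 in size effect and -0.67 ± 0.10 in interaction (permutation, adjusted p = 6e-05 for each over 6 comparisons). Rasa1+p53 had 0.41 ± 0.05, from which Nf1+p53 differed by 0.13 ± 0.06 without passing (permutation, adjusted p = 0.0551). In H11-LSL-Cas9 mice the differences from Rb1+p53 were 0.01 ± 0.09 in size effect and -0.15 ± 0.14 in interaction. Neither passed there (permutation, adjusted p = 0.932 and 0.466).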

How the data were processed

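Genotype groups, guides and cells came from 1 deposited table. Per the labels' protocols, barcode and guides were amplified from 32 µg of lung DNA and sequenced. The deposited read counts are not normalized. The deposited cell numbers are a signal, the authors' estimate from spike-in barcodes, and within a mouse equal the read count times 1 factor, as checked on the values. No aligner or earlier filter is stated (not given in the sources used here). Members, gene lists and tests were chosen with earlier results of these data known, and some items of the table are not reported here.

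Tumours with the same guide in both places (6757) and 288 spike-in entries were left out. Size was the mean log2 cells of a class in a mouse with at least 5 tumours (10 for the 90th percentile), and differences within mice were tested by 2-sided sign flips over at least 6 mice, exact or with 100000 resamples (20000 where group comparisons were repeated without 1 mouse). Number was log2 of tumours plus 0.5, tested with studentised permutation of mouse labels over mice with at least 5 inert/inert tumours. P-values were adjusted by Benjamini-Hochberg over all gene pairs of a table, with a call under 0.05. Nf1+Rasa1, Rasa1+p53 and Rb1+p53 were chosen for comparison with values known, from the many pairs that share a gene with Nf1+p53. Scripts were tested on simulated data, which the size tests recovered, while number ratios of very rare pairs came out too high. Values were computed in Python (3.11.15) with pandas (2.3.3) and numpy (2.4.6), and figures drawn in matplotlib (3.10.9).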

Additional observations from a re-analysis of the deposited data

Results flagged for a closer look

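In KT mice, the 90th percentile of Nf1+p53 tumours minus that of Nf1+inert tumours was -0.69 on the log2 scale in mouse 7, far from the nearest other mouse at -0.02. The interaction in the 90th percentile was -0.86 in the same mouse, with the nearest other at -0.09. Both were singled out by the gap to the nearest mouse over the range of the 9 mice, among 12 KT results looked at, and chance flags about 1 in 20. The excess of Nf1+p53 over inert/inert in mean log2 cells was greater in H11-Cas9 than in H11-LSL-Cas9 mice by 0.34, by a permutation test of the difference itself (adjusted p = 0.0377). It no longer passed without any 1 of 31 of the 62 mice (same permutation test, adjusted p up to 0.0823), and genotype and the letters of the mouse names cannot be told apart. The spike-in totals also differed between these groups, with every H11-LSL-Cas9 mouse near 300000 cells.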

How the results depend on the processing

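Of 226 alternatives over 20 results, leaving out mice aside, 12 left both value and adjusted p identical. Of the other 214, 173 counted as the same. For tested alternatives that meant the same direction and side of the threshold. Ratios of summed numbers had no test and counted as the same within 1 SD over Cas9 mice of the main value. For H11-Cas9 mice, the interaction in mean log2 size was -0.18 and not called, but it passed with the log2 of mean cells (-0.75, permutation, adjusted p = 0.0465), with same-guide inert constructs kept (-0.24, 0.0153) and with mice weighted by their Nf1+p53 tumours (-0.19, 0.0481), and leaving out 1 mouse moved it between -0.21 and -0.15. It was smaller with the median (-0.09, 0.661) and near a spike-in total of 300000 cells (-0.06, 0.767), against -0.28 near 100000. The interaction in number, -0.05, was -0.50 at 500 and at 1000 cells without passing. The excess over p53+inert no longer passed within spike-in totals near 100000 (0.24, adjusted p = 0.0569) or 300000 cells (0.26, 0.0567), or in mice named LA at 300000 (0.28, 0.154). Its 90th percentile likewise gave 0.57 and 0.44 within the totals, 0.44 in LA mice and 0.69 with inert guides NT and EGFP only. Fewer mice entered each of these. The excess over Nf1+inert turned to -0.0277 with NT and EGFP only. In number, the excess over Nf1+inert no longer passed at 500 cells (0.21) or 1000 cells (0.26), with the plain difference permuted (0.18), within totals near 300000 (0.24) or 100000 (0.12), or in LA mice (0.20), and ranged between 0.14 and 0.20 as each KT mouse was left out. The contrast between Nf1 guides was 0.11 near 300000.

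For H11-LSL-Cas9 mice, the excess over inert/inert passed at 200 cells (0.41), with at least 10 tumours (0.29), with mean cells (0.89), with same-guide inert constructs (0.27), with NE counted as inert (0.25) and with weighted mice (0.25), and ranged between 0.16 and 0.27 as each mouse was left out. The excess over Nf1+inert turned negative at 200 cells (-0.15), 500 cells (-0.55) and with mean cells (-0.41), and in upper percentiles at the 95th (-0.11), at 200 cells (-0.44) and with safe guides only (-0.0609). The interaction, 0.01, turned negative at 200 cells (-0.32), with 10 tumours (-0.0427), mean cells (-1.13), same-guide constructs (-0.0407), NE as inert (-0.0162), weighted mice (-0.0341) and safe guides only (-0.0250), and ranged between -0.0418 and 0.0530 without 1 mouse. In number, the excess over inert/inert did not pass at 200 cells (0.33), with the plain difference (0.33) or near 300000 (0.34), the interaction was 0.0945 at 200 cells, and the excess over p53+inert passed with NE as inert (0.20). The cause of these changes was not tested. Settings by LA names, by guide name, over commoner pairs and for the guide contrast were chosen after seeing the data.

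No paired analysis was possible because replicate numbers, given in accession order, match no mice across groups. Classes were compared within a mouse and genotypes between mice. The number of tumours per class and mouse, and the 9 KT mice, limit the precision.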
